A study of Mus musculus with 32 samples.

Results

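Monoamine synthesis, transport and breakdown was followed through 8 genes in mouse amygdala: Th, Ddc and Tph2 for synthesis, Slc18a2, Slc6a3 and Slc6a4 for transport, and Maoa and Maob for breakdown. The 8 were chosen by symbol, and all 8 were found among the 25239 genes of the exon-count tables. Total RNA was sequenced after metabolic labelling in wild-type mice. Newly made RNA takes up the uridine analogue 4-thiouridine (4sU), and once alkylated each such base is read as C in place of T. Mice received 4sU (100 mM in DMSO) or DMSO alone by stereotaxic injection, 24 h ahead of RNA extraction. The amygdala of both sides was taken from mice after chronic stress (4 libraries with 4sU, 3 with DMSO alone), after acute stress (5 with 4sU, 5 with DMSO alone) and at baseline (5 with 4sU, 4 with DMSO alone), 26 libraries in all. All groups thus carry surgery and DMSO, and the baseline mice are the controls of both stress states. Ages and stress procedures are absent from the labels used here. The labels describe replicates as separate samples and say no more of the animals, and p-values therefore reflect the spread among those samples, which may be technical.

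Dopamine and noradrenaline are made from tyrosine by tyrosine hydroxylase and aromatic amino acid decarboxylase, and serotonin from tryptophan by tryptophan hydroxylase and the same decarboxylase. The vesicular monoamine transporter loads all of them into synaptic vesicles, the plasma membrane transporters take them back into the nerve ending after release, and monoamine oxidases A and B in the outer mitochondrial membrane break them down. The amygdala receives its monoamine fibres from cell bodies in the midbrain and hindbrain, where the mRNAs of the transporters and of the tryptophan hydroxylase of the brain are classically found. The oxidases are more widely expressed, in neurons, glia and vessels.

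The libraries held 16150316 to 21228741 exon counts. Levels are given as CPM, exon counts scaled to the library's total with TMM factors, and compared between genes as RPKM, CPM per kilobase of exon. The amygdala markers Rspo2 (1.83 to 16.7 CPM), Prkcd (31.4 to 86.0 CPM) and Crh (4.76 to 11.9 CPM) were read in every library. Markers of glutamatergic neurons were low in 5 libraries, namely chronic 4sU library 3, chronic DMSO library 1 and libraries 1, 3 and 4 of the acute DMSO group, and each count of called genes was repeated without them. The 10 baseline and acute 4sU libraries also stood apart from the other 16 in oligodendrocyte markers, whose 12 genes summed to 7035 to 10313 CPM there, against 13597 to 29655 CPM in the other 4 groups. Each of these 10 also had fewer reads in 3′ untranslated regions per exon count than any of the other 16. For example, baseline 4sU library 1 had 6915576 such reads beside 17498512 exon counts, and chronic 4sU library 1 had 7812046 beside 17030699. The cause of this split was not tested.

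In the mm10 build Th lies on the minus strand at chr7:142892779-142899995, Ddc on the minus strand at chr11:11814101-11898144 and Tph2 on the minus strand at chr10:115078641-115185022. Slc18a2 lies on the plus strand at chr19:59260878-59296012, Slc6a3 on the plus strand at chr13:73536747-73578672 and Slc6a4 on the plus strand at chr11:76998597-77032343. Maoa (plus strand, chrX:16619698-16687812) and Maob (minus strand, chrX:16709281-16817366) lie next to each other in opposite orientation. The exons of the 8 genes overlap those of no other gene in the tables. Promoters, from 250 bases before to 50 after the start site, were matched for 7 of the 8 genes in RefSeq (GRCm38.p6). They were searched on both strands for the full cyclic AMP response element TGACGTCA, the Nr4a element AAAGGTCA and the glucocorticoid response element. Those of Th, Slc18a2 and Slc6a3 are shown 5′ to 3′ because Slc18a2 and Slc6a3 moved together in these libraries while Th followed them less closely. The full cyclic AMP element is in capitals.
Th (chr7:142899946-142900245, minus strand): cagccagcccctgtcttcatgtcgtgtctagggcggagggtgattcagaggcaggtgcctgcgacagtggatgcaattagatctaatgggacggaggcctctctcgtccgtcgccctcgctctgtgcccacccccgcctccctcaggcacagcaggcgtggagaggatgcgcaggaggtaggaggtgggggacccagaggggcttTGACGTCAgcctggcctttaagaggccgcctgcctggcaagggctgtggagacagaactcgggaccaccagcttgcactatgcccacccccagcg
Slc18a2 (chr19:59260628-59260927, plus strand): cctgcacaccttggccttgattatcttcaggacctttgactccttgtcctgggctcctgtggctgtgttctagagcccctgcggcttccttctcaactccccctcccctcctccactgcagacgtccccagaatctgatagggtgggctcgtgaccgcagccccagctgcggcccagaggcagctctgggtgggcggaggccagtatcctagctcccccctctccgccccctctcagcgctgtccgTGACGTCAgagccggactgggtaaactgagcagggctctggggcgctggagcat
Slc6a3 (chr13:73536497-73536796, plus strand): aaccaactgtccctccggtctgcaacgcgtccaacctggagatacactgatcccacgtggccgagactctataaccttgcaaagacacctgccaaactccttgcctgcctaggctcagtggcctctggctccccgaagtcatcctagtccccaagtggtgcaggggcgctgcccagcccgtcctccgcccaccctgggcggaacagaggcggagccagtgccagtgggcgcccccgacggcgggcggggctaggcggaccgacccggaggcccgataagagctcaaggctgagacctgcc
The element starts at position -45 from the start site in Th and at position -4 in Slc18a2, and these letters are not in the window of Slc6a3. It is held by 588 of 32851 RefSeq mouse promoters of this length (1.79%). The Nr4a element, in 1.51% of promoters, was found in 1 of the 2 promoters of Ddc, and the glucocorticoid element, in 0.475%, in that of no matched member. A match describes letters and not binding.

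Per length, the oxidases were the most abundant of the 8 mRNAs. The median over the 26 libraries was 12.3 RPKM for Maoa, 11.6 RPKM for Maob and 9.46 RPKM for Ddc, followed by Th at 4.49 RPKM and Slc18a2 at 2.38 RPKM. Slc6a3 had 0.488 RPKM, Tph2 0.188 RPKM and Slc6a4 0.0441 RPKM. Maoa and Maob were not separated, since Maoa was the higher in 13 of 26 libraries, and Maob exceeded Ddc in 20 of 26. Ddc exceeded Th in 26 of 26 libraries and Th exceeded Slc18a2 in 24 of 26. Slc18a2 exceeded Slc6a3 in 22 of 26 libraries, Slc6a3 exceeded Tph2 in 23 and Tph2 exceeded Slc6a4 in 25. The members differed in how far they varied: the highest library held 92.5 times the CPM of the lowest for Slc6a3, against 8.15 times for Tph2, 5.17 times for Slc18a2, 4.76 times for Th, 2.95 times for Ddc, 2.02 times for Maoa and 1.65 times for Maob. In chronic 4sU library 4 Slc6a3 reached 11.4 RPKM, close to the 12.2 RPKM of Th there.

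Tyrosine hydroxylase, the rate-limiting enzyme of dopamine and noradrenaline synthesis, passed the test in none of the 13 comparisons of exon counts by edgeR. Th had 11.6, 6.62, 11.8 and 21.8 CPM in the 4 chronic 4sU libraries and 7.12, 5.71 and 5.02 CPM in the 3 chronic DMSO libraries. It had 9.19, 9.11, 6.41, 8.62 and 10.2 CPM in the acute 4sU libraries and 12.5, 9.70, 6.39, 6.47 and 4.59 CPM in the acute DMSO libraries. The baseline 4sU libraries held 6.07, 10.5, 11.3, 8.84 and 7.37 CPM and the baseline DMSO libraries 11.6, 6.60, 5.50 and 6.90 CPM. Chronic 4sU library 4 was the highest of the 26, and the ranges of the stressed and baseline groups overlapped in both arms, as the mice given 4sU and those given DMSO alone are called. The log2 fold change (± SE) of chronic 4sU against baseline 4sU mice was 0.53 ± 0.30, with an adjusted p of 0.145 by edgeR's quasi-likelihood test, run two-sided with Benjamini-Hochberg adjustment over all genes tested; further adjusted p-values come from it unless another tool is named. In DMSO mice it was -0.36 ± 0.36 (edgeR adjusted p = 0.947). Without chronic 4sU library 2 the first of these was 0.79 and passed the test (edgeR adjusted p = 0.0225), as did the difference between the arms at 1.15 (edgeR adjusted p = 0.0405) and chronic against acute 4sU mice at 0.79 (edgeR adjusted p = 0.0236). In these bulk libraries more cells of a type and more RNA per cell cannot be told apart.

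The decarboxylase gene was higher in chronic than in baseline 4sU mice. Ddc, whose enzyme serves both catecholamine and serotonin synthesis, had 33.8, 29.6, 25.3 and 33.2 CPM in chronic 4sU libraries, against 12.8, 14.5, 15.1, 15.8 and 12.2 CPM in baseline 4sU libraries. These groups did not overlap, and the log2 fold change was 1.09 ± 0.10 (edgeR adjusted p = 3.3e-08). In DMSO mice Ddc had 23.2, 21.0 and 19.2 CPM after chronic stress, against 26.5, 22.9, 22.1 and 24.1 CPM at baseline. There the groups overlapped, with a log2 fold change of -0.17 ± 0.11 (edgeR adjusted p = 0.919). The effects in the 2 arms differed by 1.26 ± 0.15 on the log2 scale (edgeR adjusted p = 4.1e-06 for the difference). After acute stress Ddc had 16.3, 14.4, 13.4, 15.9 and 12.4 CPM with 4sU and 18.6, 36.1, 23.9, 20.3 and 15.4 CPM with DMSO, and the ranges overlapped those at baseline. The acute DMSO group was the most spread, with 22.9 ± 8.02 CPM (SD, n = 5). Against the acute 4sU mice the chronic 4sU mice were higher by 1.07 ± 0.16 on the log2 scale (edgeR adjusted p = 5.8e-06).

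Tph2, the tryptophan hydroxylase of serotonin neurons, was read at 2 to 16 counts per library. Counts were 7, 10, 7 and 15 in chronic 4sU libraries and 9, 16 and 9 in chronic DMSO libraries. They were 13, 10, 10, 11 and 5 in acute 4sU libraries and 7, 16, 5, 13 and 11 in acute DMSO libraries. Baseline 4sU libraries had 8, 3, 5, 4 and 15 counts and baseline DMSO libraries 6, 7, 2 and 10 counts. The 6 groups overlapped one another. The log2 fold change of chronic stress was 0.44 ± 0.48 in 4sU mice and 0.83 ± 0.54 in DMSO mice, and that of acute stress 0.29 ± 0.44 in 4sU mice and 0.75 ± 0.48 in DMSO mice (edgeR adjusted p from 0.455 to 1). As the mean of both arms chronic stress gave 0.64 ± 0.36 (edgeR adjusted p = 0.168). This passed without baseline 4sU library 5, at 0.88 (edgeR adjusted p = 0.0433), and with the replicate number as a block, at 0.96 (edgeR adjusted p = 0.0310).

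**Figure D1:**
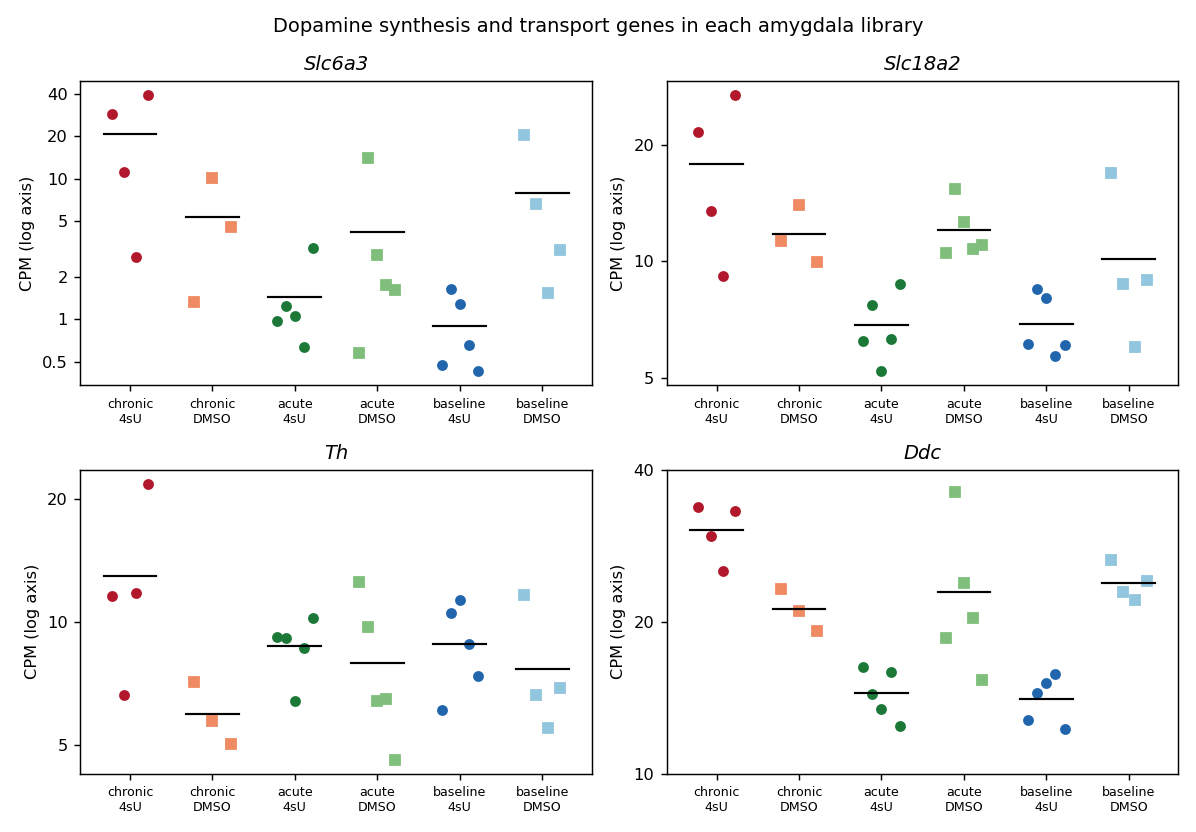
Level of Th, Ddc, Slc18a2 and Slc6a3 in each of the 26 libraries, in CPM on a log axis, with 1 point per library, chronic, acute and baseline groups from left to right and 4sU beside DMSO in each; bars mark group means. Slc6a3 reaches 39.5 CPM in a chronic 4sU library and 0.426 CPM in a baseline 4sU library, while Ddc separates chronic 4sU (25.3 to 33.8 CPM) from baseline 4sU (12.2 to 15.8 CPM).

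The vesicular transporter and the dopamine transporter were both higher in chronic than in baseline 4sU mice. Slc18a2, which fills vesicles with monoamines, had 21.6, 13.5, 9.17 and 26.9 CPM in chronic 4sU libraries, against 6.13, 8.51, 8.03, 5.70 and 6.09 CPM in baseline 4sU libraries. The groups did not overlap, and the log2 fold change was 1.35 ± 0.32 (edgeR adjusted p = 0.0025). With DMSO it had 11.3, 14.0 and 9.97 CPM after chronic stress, against 16.9, 8.73, 6.01 and 8.95 CPM at baseline. These overlapped, with a log2 fold change of 0.22 ± 0.36 (edgeR adjusted p = 0.966). The difference between the arms was 1.13 ± 0.49 on the log2 scale and missed the threshold (edgeR adjusted p = 0.0846). Acute libraries had 6.21, 7.71, 5.20, 6.30 and 8.73 CPM with 4sU and 10.5, 15.4, 12.6, 10.8 and 11.1 CPM with DMSO, so the injection groups did not overlap after acute stress.

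Slc6a3, the dopamine transporter of the plasma membrane and a gene typical of midbrain dopamine neurons, varied most. Chronic 4sU libraries held 29.0, 11.2, 2.78 and 39.5 CPM, against 0.476, 1.63, 1.28, 0.653 and 0.426 CPM in baseline 4sU libraries. Every chronic 4sU library lay above every baseline 4sU library; within the chronic group library 3 was the lowest. The log2 fold change was 4.50 ± 0.99 (edgeR adjusted p = 0.0016). With DMSO the values were 1.33, 10.1 and 4.51 CPM after chronic stress, against 20.5, 6.55, 1.53 and 3.09 CPM at baseline. These overlapped, the highest being a baseline library, with a log2 fold change of -0.57 ± 0.95 (edgeR adjusted p = 0.966). The arms differed by 5.07 ± 1.41 on the log2 scale (edgeR adjusted p = 0.0127), a difference of 4.02 without baseline DMSO library 1 (edgeR adjusted p = 0.0315) and of 5.97 without chronic DMSO library 2 (edgeR adjusted p = 0.0127). With the replicate number as a block it was 4.09 and missed the threshold (edgeR adjusted p = 0.0758). Acute 4sU libraries held 0.973, 1.25, 1.06, 0.635 and 3.23 CPM and acute DMSO libraries 0.577, 14.0, 2.84, 1.75 and 1.60 CPM. Single libraries stood above their group in both acute groups, library 5 with 4sU and library 2 with DMSO. Acute DMSO library 2 also departed from its group over many genes. Its counts, compared in pairs at equal depth, gave a chi-square per gene of 86.9 to 118.9. The other pairs of that group gave 12.9 to 51.1.

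As the mean of both arms, chronic stress gave Slc6a3 a log2 fold change of 1.97 ± 0.70 (edgeR adjusted p = 0.0364), which did not hold in 13 of 23 alternatives. The call was lost on leaving out baseline 4sU library 1, 4 or 5, baseline DMSO library 2, 3 or 4, chronic 4sU library 1 or 4, or chronic DMSO library 2 or 3. The log2 fold change over these ranged from 1.55 to 2.04 (edgeR adjusted p from 0.0503 to 0.137). Slc18a2, at 0.78 ± 0.24 for the same mean (edgeR adjusted p = 0.0174), passed in each of its 23 alternatives.

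Slc6a4, the serotonin transporter, was close to the limit of detection. Counts were 6, 2, 1 and 2 in chronic 4sU libraries and 3, 3 and 2 in chronic DMSO libraries, and 5, 8, 1, 1 and 2 in acute 4sU libraries and 0, 3, 0, 3 and 5 in acute DMSO libraries. Baseline 4sU libraries had 2, 3, 5, 0 and 0 counts and baseline DMSO libraries 6, 1, 3 and 2. It was at 0 in 4 libraries, every group overlapped every other, and it did not pass the filter on low counts in any fit. Fitted without the filter, its log2 fold change in 4sU mice was 0.42 ± 0.80 for chronic stress (edgeR adjusted p = 0.727) and 0.56 ± 0.85 for acute stress (edgeR adjusted p = 1).

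**Figure D2:**
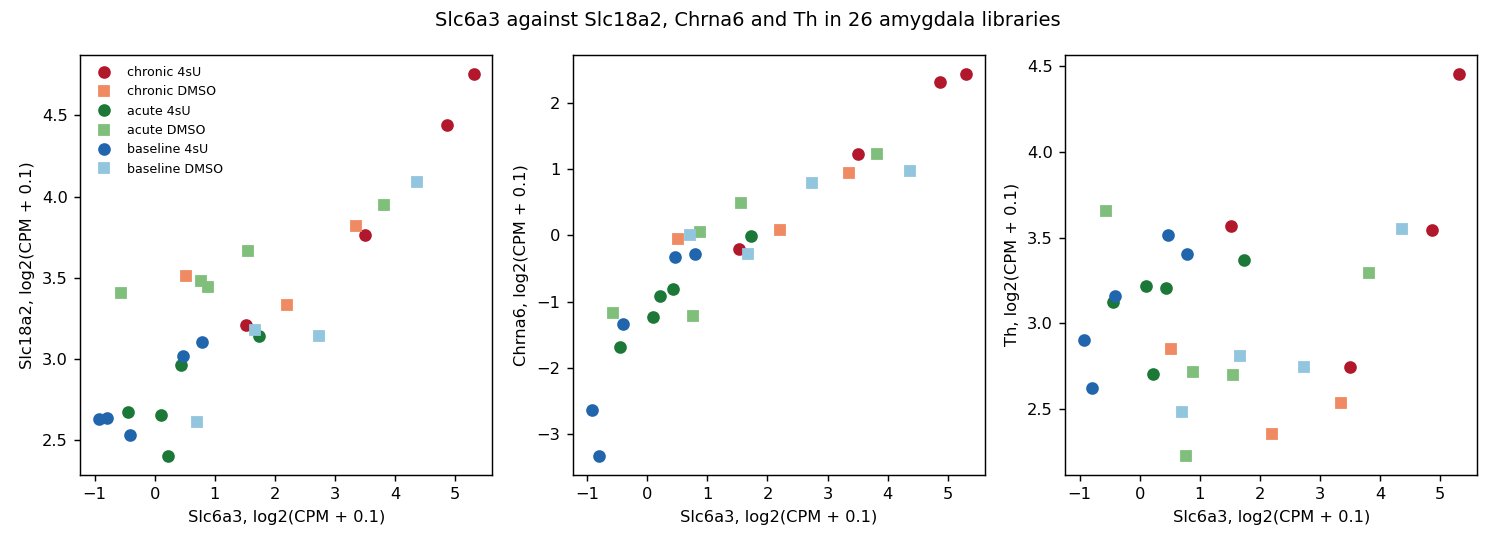
Slc6a3 against Slc18a2, Chrna6 and Th in the 26 libraries, each axis as log2(CPM + 0.1), with 1 point per library, colours for the 6 groups, circles for 4sU and squares for DMSO. Slc18a2 (r = 0.87 on log2 CPM) and Chrna6 (r = 0.92) climb with Slc6a3, and Th is scattered against it (r = 0.32).

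Across the 26 libraries Slc18a2 was among the genes most like Slc6a3, at Pearson r = 0.87 (Spearman rho = 0.79) on log2 CPM, and within the 6 groups r was 0.85. Of 15161 other genes, the most like Slc6a3 was Chrna6, a nicotinic receptor subunit of dopamine neurons, at r = 0.92 (rho = 0.94), and the third after Slc18a2 was Rabl2 at r = 0.84. For Slc18a2 Chrna6 (r = 0.83) and Ret (r = 0.82), the receptor of GDNF family ligands, came next after Slc6a3. Chrna6 itself had 4.90, 2.25, 0.769 and 5.32 CPM in chronic 4sU libraries, against 0, 0.724, 0.698, 0.297 and 0.0609 CPM in baseline 4sU libraries, in the same order of libraries within the chronic group as Slc6a3. Th followed neither transporter as closely, with r = 0.32 to Slc6a3 and r = 0.40 to Slc18a2. Within the 6 groups these were 0.36 and 0.61, so Th moved partly with Slc18a2 there. The gene most like Th, Shroom1, reached r = 0.65. The points share library, depth and scaling, and these values describe the 26 libraries only.

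Some markers of the brainstem neurons that make monoamines moved with Slc6a3 and Slc18a2, and the most abundant of them did not. Of a list of 14 such markers 8 were tested for chronic stress in 4sU mice and 6 rose, where 26.9% of all genes were higher, among them Gata3 by 3.88, Foxa1 by 3.78 and Lmx1b by 2.87 on the log2 scale. The list was chosen with earlier results of these data known, so this count is a description only. Slc10a4 had a log2 fold change of -0.15 ± 0.22 (edgeR adjusted p = 0.586) and Nr4a2 of -0.29 ± 0.41 (edgeR adjusted p = 0.578). These 2 had the highest medians over the 26 libraries among the markers named here, at 21.6 CPM for Slc10a4 and 14.4 CPM for Nr4a2, and r with Slc6a3 was -0.37 and 0.01 for them, against 0.72 for Gata3, 0.53 for Foxa1 and 0.50 for Lmx1b. The summed level of the list was 43.9 to 55.2 CPM in chronic 4sU, 40.5 to 48.8 CPM in chronic DMSO, 43.9 to 55.4 CPM in acute 4sU, 41.5 to 52.2 CPM in acute DMSO, 38.6 to 46.2 CPM in baseline 4sU and 37.9 to 46.6 CPM in baseline DMSO libraries. Of the defining markers, Pitx3 of midbrain dopamine neurons was at 0 in 10 of 26 libraries and at most 0.473 CPM. Foxa2 was at 0 in 20 libraries and Fev of serotonin neurons in 20. Over the 26 libraries the mean log2 CPM of the list had r = 0.85 with Slc6a3, 0.83 with Slc18a2, 0.77 with Ddc and 0.14 with Th, each marker weighing alike whatever its level. The part of these cells in the result was not tested.

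Monoamine oxidase A separated the baseline and acute 4sU libraries from those of the other 4 groups without overlap. Maoa, whose enzyme prefers serotonin and noradrenaline, had 58.3, 55.3, 55.4 and 59.6 CPM in chronic 4sU libraries, against 30.8, 34.3, 34.2, 34.1 and 35.8 CPM in baseline 4sU libraries. The log2 fold change was 0.74 ± 0.06 (edgeR adjusted p = 1.9e-08), with means of 57.2 ± 2.16 CPM in chronic 4sU libraries (SD, n = 4) and 33.8 ± 1.86 CPM in baseline 4sU libraries (SD, n = 5). With DMSO it had 56.7, 54.0 and 58.0 CPM after chronic stress, against 55.4, 62.1, 51.6 and 50.5 CPM at baseline. Here the groups overlapped, and the log2 fold change was 0.04 ± 0.07 (edgeR adjusted p = 0.967). The arms differed by 0.70 ± 0.10 on the log2 scale (edgeR adjusted p = 2.0e-05). Acute 4sU libraries held 38.5, 35.5, 34.8, 32.8 and 36.3 CPM and acute DMSO libraries 45.9, 54.4, 58.3, 54.8 and 50.9 CPM. Thus the 10 baseline and acute 4sU libraries ran from 30.8 to 38.5 CPM, and the 16 libraries of the other 4 groups from 45.9 to 62.1 CPM.

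Oligodendrocyte markers took the same sides as Maoa, and nearly those of Ddc, which ran from 12.2 to 16.3 CPM in the 10 baseline and acute 4sU libraries and from 15.4 to 36.1 CPM in the other 16. All 12 rose in chronic against baseline 4sU mice, with a median log2 fold change of 1.52, and their sum was 20106 to 21866 CPM in chronic 4sU, 14207 to 17461 CPM in chronic DMSO, 8063 to 10313 CPM in acute 4sU, 18520 to 29655 CPM in acute DMSO, 7035 to 9818 CPM in baseline 4sU and 13597 to 17125 CPM in baseline DMSO libraries. The list's mean log2 CPM had r = 0.92 with Maoa and 0.84 with Ddc over the 26 libraries, which share library, depth and scaling. In DMSO mice their median was 0.05 for chronic stress, and 9 of 12 rose after acute stress (median 0.67), where Maoa had a log2 fold change of -0.04 ± 0.08 (edgeR adjusted p = 0.845) and Ddc of -0.05 ± 0.17 (edgeR adjusted p = 0.919). Some markers of other cell types moved with Maoa and Ddc too. In chronic against baseline 4sU mice 6 of 11 astrocyte markers rose and 3 fell, and 5 of 9 markers of endothelium and pericytes rose and 1 fell. Of all genes 56.5% were called in that comparison and 26.9% were higher. The mean log2 CPM had r = 0.75 with Maoa and 0.69 with Ddc for astrocytes, and 0.72 with Maoa and 0.68 with Ddc for endothelium and pericytes. The part of these cells in the results was not tested. The sides of Maoa and of the oligodendrocyte markers are also those of 3′ untranslated region reads per exon count. Cell content and that split cannot be told apart here. The genes most like Maoa were Zdhhc20, Cfl2 and Vma21 (each r = 0.97), and those most like Ddc were Gramd3 (r = 0.91), Itm2a (r = 0.89) and Ctso (r = 0.89).

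Maob, whose enzyme prefers phenylethylamine and is abundant in astrocytes, varied least. It had 28.3, 27.1, 20.3 and 33.5 CPM in chronic 4sU libraries, 32.2, 28.4 and 29.9 CPM in chronic DMSO libraries, 22.9, 22.8, 29.6, 28.9 and 22.7 CPM in acute 4sU libraries and 22.7, 33.0, 31.1, 25.2 and 30.2 CPM in acute DMSO libraries. Baseline 4sU libraries held 23.4, 25.6, 22.5, 25.0 and 24.1 CPM and baseline DMSO libraries 27.8, 31.8, 28.7 and 32.8 CPM. The baseline groups did not overlap each other, while each stressed group overlapped the baseline group of its arm. The log2 fold change of chronic stress was 0.16 ± 0.10 in 4sU mice (edgeR adjusted p = 0.201) and -0.00 ± 0.12 in DMSO mice (edgeR adjusted p = 0.999). Without chronic 4sU library 3, the lowest of the 26, the value in 4sU mice was 0.28 and passed the test (edgeR adjusted p = 0.00700), as it did without the 5 libraries low in glutamatergic markers at 0.29 (edgeR adjusted p = 0.0062). Counted from reads in the 3′ untranslated region, Maob had 0.46 for chronic stress in 4sU mice (edgeR adjusted p = 0.0078), 0.40 for chronic against acute 4sU mice (edgeR adjusted p = 0.0281) and 0.60 for the difference between the arms (edgeR adjusted p = 0.0269), which was 0.16 from exon counts (edgeR adjusted p = 0.442). Maoa and Maob, neighbours on the X chromosome, had r = 0.55 over the 26 libraries and 0.23 within groups. The genes most like Maob were Cltrn (r = 0.81), Septin10 (r = 0.79) and Ctnnal1 (r = 0.79).

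**Figure D3:**
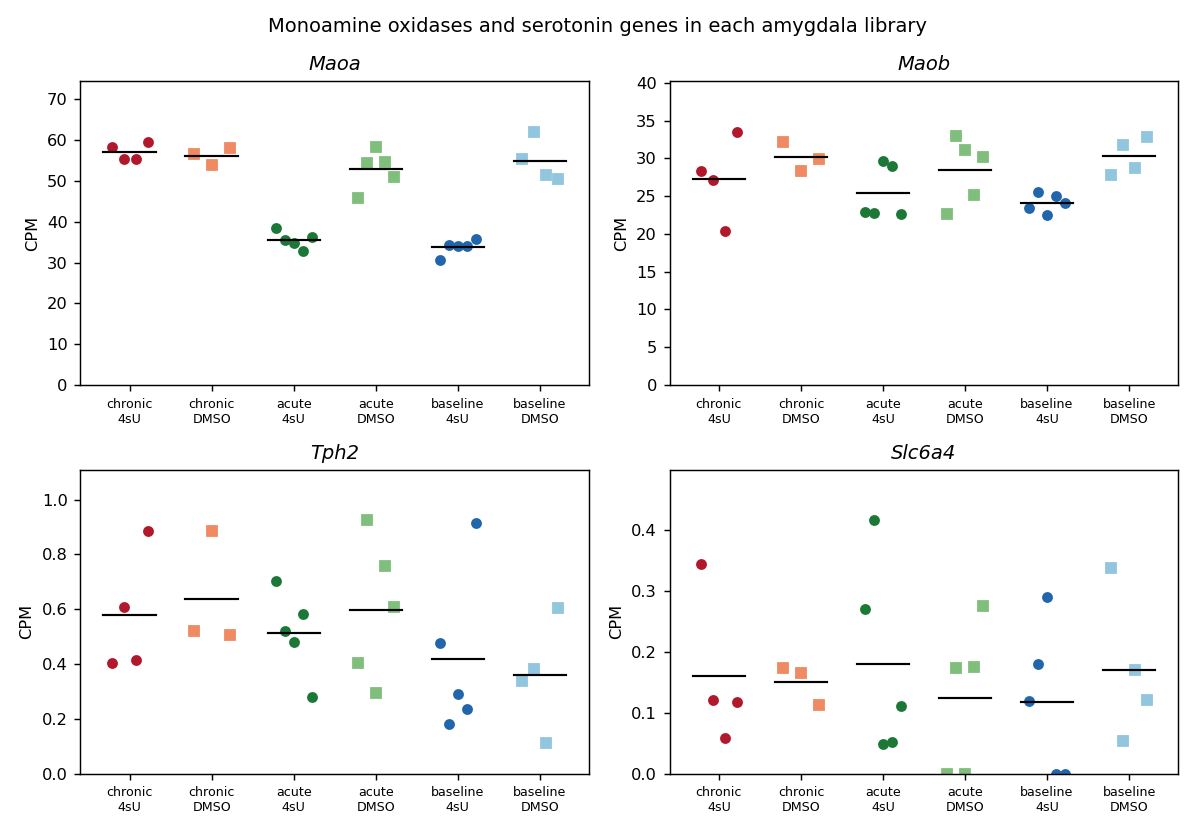
Level of Maoa, Maob, Tph2 and Slc6a4 in each of the 26 libraries, in CPM, with 1 point per library and bars at group means; chronic, acute and baseline groups run from left to right with 4sU beside DMSO. Maoa lies between 30.8 and 38.5 CPM in the baseline and acute 4sU libraries and between 45.9 and 62.1 CPM in the others, and Slc6a4 is at 0 in 4 libraries.

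Counted over the members, 4 of the 7 tested were called for chronic stress against baseline in 4sU mice, with Ddc, Slc6a3, Slc18a2 and Maoa higher and none lower. Of the 16096 genes tested there 56.5% were called and 26.9% were higher, so calls were common, and the median log2 fold change was 0.74 over the members and -0.02 over all genes. The chronic 4sU libraries lie on the other side of the split in 3′ untranslated region reads per exon count from the baseline and acute 4sU libraries. Stress and that split cannot be told apart in 4sU mice. In DMSO mice 0 of 7 were called by edgeR, 0 had an unadjusted p under 0.05 and DESeq2 called 0, beside 0% of all genes called (913 with an unadjusted p under 0.05). The same 4 genes were higher in the mean of both arms, beside 43.8% of genes called and 21.3% higher. The difference between the arms was called for 3 of 7 (Ddc, Slc6a3 and Maoa; without Slc6a3 under the replicate block), beside 38.0% of genes called and 18.1% with the larger effect in 4sU mice. With the 5 glutamatergic-low libraries left out it was called for 5, with Slc18a2 at 1.34 (edgeR adjusted p = 0.0498) and Maob at 0.36 (edgeR adjusted p = 0.0384) added. Slc18a2 also passed without baseline DMSO library 3 at 1.35 (edgeR adjusted p = 0.0380) or chronic 4sU library 3 at 1.35 (edgeR adjusted p = 0.0242), and with all 6 groups in the fit at 1.16 (edgeR adjusted p = 0.0355). The mean and the difference use the same libraries as the arms and are no further evidence.

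Against acute stress, Ddc, Slc6a3, Slc18a2 and Maoa were higher in chronic 4sU mice, in a comparison that shares its 4 chronic 4sU libraries with that against baseline. These were 4 of 7 tested, beside 47.2% of the 16310 genes called and 23.9% higher. Slc6a3 was higher by 3.86 ± 0.88 (edgeR adjusted p = 0.00099), Slc18a2 by 1.38 ± 0.26 (edgeR adjusted p = 0.00012) and Maoa by 0.69 ± 0.07 (edgeR adjusted p = 2.9e-08) on the log2 scale. In DMSO mice 0 of 7 were called by edgeR, 0 had an unadjusted p under 0.05 and DESeq2 called 0, beside 1.78% of all genes, with log2 fold changes from -0.41 for Th to 0.37 for Slc6a3.

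Acute stress called none of the 7 members tested, in either arm, in the mean of the arms or in their difference, by edgeR, by DESeq2 or at an unadjusted p under 0.05. Of the 15995 genes tested edgeR called 0.269% in 4sU mice, 2.51% in DMSO mice, 2.39% in the mean and 0% in the difference (916 with an unadjusted p under 0.05). The mean effect was precise for the oxidases, at 0.02 ± 0.06 for Maoa and -0.00 ± 0.08 for Maob on the log2 scale, and for Ddc at -0.01 ± 0.12. It was wide for Slc6a3, at -0.13 ± 0.59, with 0.66 ± 0.89 in 4sU mice and -0.92 ± 0.73 in DMSO mice. Beside them the cofactor enzyme gene Gch1, whose GTP cyclohydrolase starts the synthesis of the tetrahydrobiopterin that Th and Tph2 need, rose in the mean of both arms. Gch1 had 2.05, 2.86, 2.02, 3.12 and 2.00 CPM in acute 4sU libraries, against 1.55, 1.93, 1.34, 0.831 and 1.10 CPM in baseline 4sU libraries. With DMSO it had 2.60, 2.48, 2.25, 2.45 and 1.60 CPM after acute stress, against 1.07, 1.26, 1.30 and 1.45 CPM at baseline. Acute and baseline libraries did not overlap in either arm, and the mean log2 fold change was 0.84 ± 0.16 (edgeR adjusted p = 0.0053). Neither arm passed alone, with 0.84 ± 0.22 in 4sU mice (edgeR adjusted p = 0.173) and 0.85 ± 0.23 in DMSO mice (edgeR adjusted p = 0.0574).

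**Figure D4:**
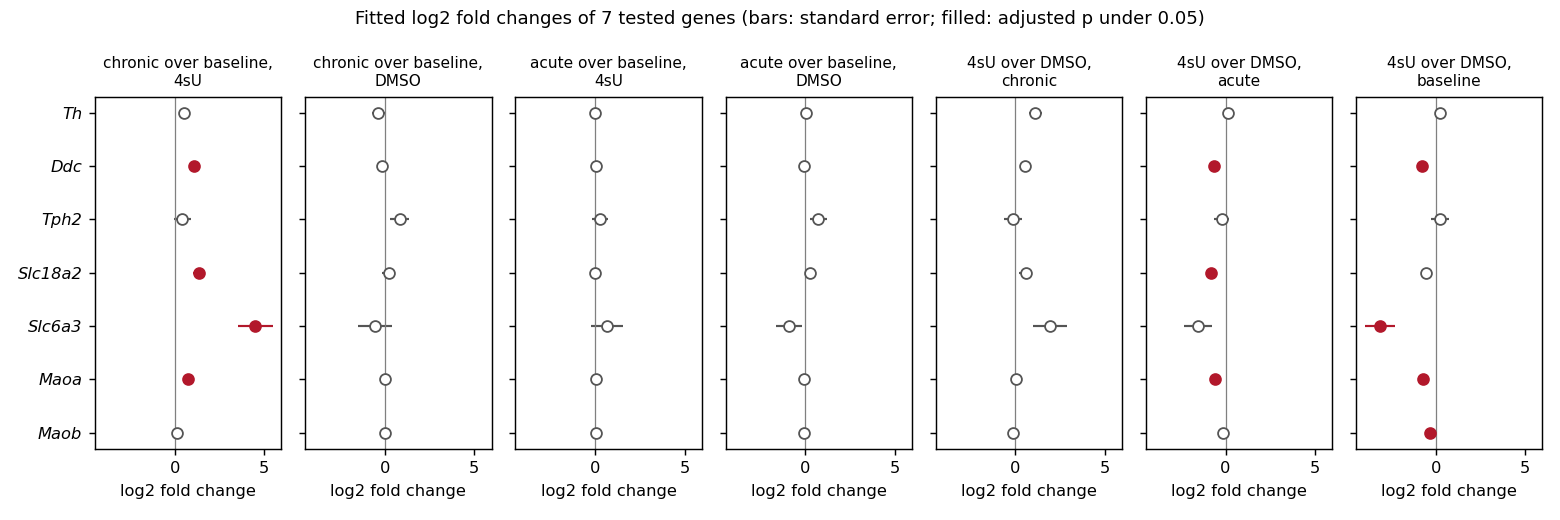
Log2 fold change (horizontal axis) of the 7 tested members in 7 panels, chronic and acute stress over baseline in each arm and 4sU over DMSO in each state, with bars of 1 standard error; filled points pass an adjusted p of 0.05 by edgeR's quasi-likelihood test. Filled points lie right of 0 for chronic stress in 4sU mice (Slc6a3 at 4.50) and left of 0 for 4sU over DMSO at baseline and after acute stress (Slc6a3 at -3.13 at baseline), and the other 4 panels hold open points.

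Members differed between 4sU and DMSO libraries at baseline and after acute stress, and none was called by edgeR after chronic stress. At baseline and after acute stress all 4sU libraries lie on the low side of the split in 3′ untranslated region reads per exon count. Injection and that split cannot be told apart there. At baseline 4 of 7 were called lower with 4sU than with DMSO alone: Ddc at -0.75 ± 0.17 (edgeR adjusted p = 0.0017), Slc6a3 at -3.13 ± 0.84 (edgeR adjusted p = 0.0055), Maoa at -0.69 ± 0.08 (edgeR adjusted p = 1.8e-06) and Maob at -0.32 ± 0.11 (edgeR adjusted p = 0.0267) on the log2 scale. Of all genes 41.9% were called there and 20.7% were lower. Slc6a3 had -2.07 without baseline DMSO library 1 (edgeR adjusted p = 0.0497), and Maob missed the threshold without baseline 4sU library 1 or 3 or baseline DMSO library 2 (log2 fold change -0.31 to -0.30, edgeR adjusted p from 0.0547 to 0.0726). Slc18a2 had -0.55 ± 0.23 (edgeR adjusted p = 0.0611), and passed without baseline 4sU library 2 at -0.64 (edgeR adjusted p = 0.0473) or baseline DMSO library 3 at -0.76 (edgeR adjusted p = 0.0094), from reads in the 3′ untranslated region at -0.54 (edgeR adjusted p = 0.0144) and by DESeq2 at -0.56 (DESeq2 adjusted p = 0.0431). After acute stress 3 of 7 were lower with 4sU, beside 48.3% of genes called and 24.8% lower: Ddc at -0.66 ± 0.16 (edgeR adjusted p = 0.0026), Slc18a2 at -0.82 ± 0.22 (edgeR adjusted p = 0.0037) and Maoa at -0.58 ± 0.08 (edgeR adjusted p = 4.9e-06). Slc6a3 had -1.54 ± 0.77 (edgeR adjusted p = 0.107), and passed without acute DMSO library 1 at -1.83 (edgeR adjusted p = 0.0488). Without the 5 libraries low in glutamatergic markers 5 were lower, with Slc6a3 at -2.45 (edgeR adjusted p = 0.0194) and Maob at -0.31 (edgeR adjusted p = 0.0368) added. Only libraries 2 and 5 of the acute DMSO group were then left. Library 2 was the highest of that group for Slc6a3 (14.0 CPM) and Maob (33.0 CPM). The share of all genes called in that setting is not given here. Maob also passed from reads in the 3′ untranslated region, at -0.38 (edgeR adjusted p = 0.0248). After chronic stress 0 of 7 were called by edgeR, beside 0.137% of genes, while 2 had an unadjusted p under 0.05 and DESeq2 called the same 2: Th at 1.13 (DESeq2 adjusted p = 0.0458) and Ddc at 0.54 (DESeq2 adjusted p = 0.0031). The 9 hypothalamic neuron markers had a median log2 fold change of 1.39 in that comparison, with 0 of 9 called by edgeR, and summed to 24.7 to 119.5 CPM in chronic 4sU libraries, against 12.4 to 22.2 CPM in chronic DMSO libraries, without overlap. Their mean log2 CPM had r = 0.44 with Th over the 26 libraries, and their part in the result was not tested. By edgeR Th had 1.12 ± 0.36 (edgeR adjusted p = 0.317) and Slc6a3 1.94 ± 0.95 (edgeR adjusted p = 0.587) after chronic stress. Ddc had 0.52 ± 0.11 (edgeR adjusted p = 0.0673), and 0.60 without chronic 4sU library 3 (edgeR adjusted p = 0.0474). The 12 oligodendrocyte markers were all lower with 4sU at baseline (median -1.14) and after acute stress (median -1.71), and 1 of 12 was higher after chronic stress. Each 4sU comparison of stress shares its baseline 4sU libraries with the comparison of injection at baseline.

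Of the other genes of the pathway, 12 for synthesis and its cofactors, 6 for transport and 10 for breakdown were listed. Under chronic stress in 4sU mice 7, 2 and 9 of them were tested, beside the 56.5% of all genes called. In synthesis Pts (0.61) and Qdpr (0.54), both of the tetrahydrobiopterin cofactor's supply, rose and Spr, sepiapterin reductase of the same route, fell by 1.22 on the log2 scale. In transport Slc29a4, a low-affinity monoamine transporter, fell by 0.86. In breakdown 4 rose and 5 fell. Aldh1a1 (1.32), an aldehyde dehydrogenase of dopamine neurons among other cells, and the histamine-methylating Hnmt (0.98) were higher, while the mitochondrial aldehyde dehydrogenase Aldh2 (-0.63) was lower. In DMSO mice the 18 had edgeR adjusted p-values from 0.751 to 0.994 for chronic stress. Acute stress called Sult1a1 (0.65 ± 0.16, edgeR adjusted p = 0.0324) beside Gch1 in the mean of the arms. At baseline 5 of the 18 were higher with 4sU than with DMSO, among them Spr (1.17), Slc29a4 (0.85) and Aldh2 (0.52), and 4 were lower, among them Pts (-0.55), Hnmt (-0.88) and Aldh1a1 (-1.07). Beside them 41.9% of all genes were called at baseline and 20.7% were lower, so such calls were common. That comparison shares the baseline 4sU libraries with chronic stress in 4sU mice. Gch1, higher after acute stress in the mean of the arms, was lower in chronic than in acute 4sU mice (-0.69, edgeR adjusted p = 0.021).

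T-to-C conversions in the 3′ untranslated regions, which mark RNA made after 4sU was given, were few for these genes. A conversion rate was tested for 5 of the 8 (Ddc, Slc6a3, Slc18a2, Maoa and Maob), since Th, Tph2 and Slc6a4 had under 2000 covered T positions on average. Ddc (mean 2169) and Slc6a3 (mean 2039) passed this limit narrowly. Both would fall below it without the chronic 4sU libraries, which held 12582 positions for Ddc and 24534 for Slc6a3. Of the 8662 genes tested 7.20% were called for 4sU against DMSO at baseline, 11.6% after acute stress and 14.1% after chronic stress, and 0 of the 5 members in each. At an unadjusted p under 0.05 there were 0 members at baseline, 1 after acute stress (Maoa) and 1 after chronic stress (Maob). Maob had 28 conversions in 26084 covered T positions in chronic 4sU libraries, against 4 in 18443 in chronic DMSO libraries. Its rate in single libraries was 0.0449, 0.106, 0.0970 and 0.163% with 4sU, against 0.0327, 0.0344 and 0% with DMSO. The injection groups did not overlap, and the log2 difference of 2.14 ± 0.97 missed the threshold (edgeR adjusted p = 0.144). The pooled exact 95% binomial intervals, 0.0713 to 0.155% with 4sU and 0.00591 to 0.0555% with DMSO, did not overlap either, and cover counting error only. For comparison, the median gene had a pooled rate of 0.0347% in chronic 4sU and 0.0232% in chronic DMSO libraries.

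Maoa had 25 conversions in 37899 covered T positions in acute 4sU libraries, against 18 in 71878 in acute DMSO libraries, with a log2 difference of 1.40 ± 0.65 (edgeR adjusted p = 0.178). Its pooled exact 95% binomial intervals, 0.0427 to 0.0974% with 4sU and 0.0148 to 0.0396% with DMSO, did not overlap. Its rates were 0.0511, 0.0226, 0, 0.209 and 0.0811% with 4sU, against 0.0352, 0, 0.0416, 0.0476 and 0.00700% with DMSO, and the groups overlapped. Without the 5 libraries low in glutamatergic markers, of which 3 are acute DMSO, the difference was 4.03 and passed the test (edgeR adjusted p = 0.0145). The acute DMSO libraries left were then library 2, with 0 conversions in 17130 positions, and library 5, with 1 in 14280. This value therefore rests on 1 conversion on the DMSO side. Slc6a3 had 12 in 24534 in chronic 4sU libraries, 8 of them in library 1, a pooled rate of 0.0489% (exact 95% binomial interval 0.0253 to 0.0854%), against 0 in 6496 in chronic DMSO libraries (exact 95% binomial interval 0 to 0.0568%; 3 conversions would be 0.0462%). The 2 intervals overlap. Intervals and limits cover counting error only. Ddc had 0 conversions in 6339 covered positions in acute 4sU libraries, with an exact 95% upper bound of 0.0582% (3 conversions would be 0.0473%). Under stress, conversion scaled to each library's overall rate was called for 0 of the 5 members in acute and in chronic against baseline 4sU mice, beside 0.0115% and 0.300% of genes, with 1 member (Slc6a3) and 0 members at an unadjusted p under 0.05. That of Slc6a3 rests on 3 conversions, all in baseline 4sU library 1 in 335 positions, against 0 in 2024 positions in acute 4sU libraries. Among the untested genes Tph2 had 11 conversions in 970 covered positions in acute 4sU libraries, and 10 of the 11 were in library 2, in 197 positions, a rate of 5.08% (exact 95% binomial interval 2.46 to 9.14%). Conversions in overlapping reads of 1 molecule are not independent, so this is a description of 1 library. With all libraries, no excess of conversions over DMSO thus passed the test at this depth for the 5 members tested. The pooled intervals of Maob after chronic stress and of Maoa after acute stress did not overlap, but they leave out the spread between libraries.

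**Figure D5:**
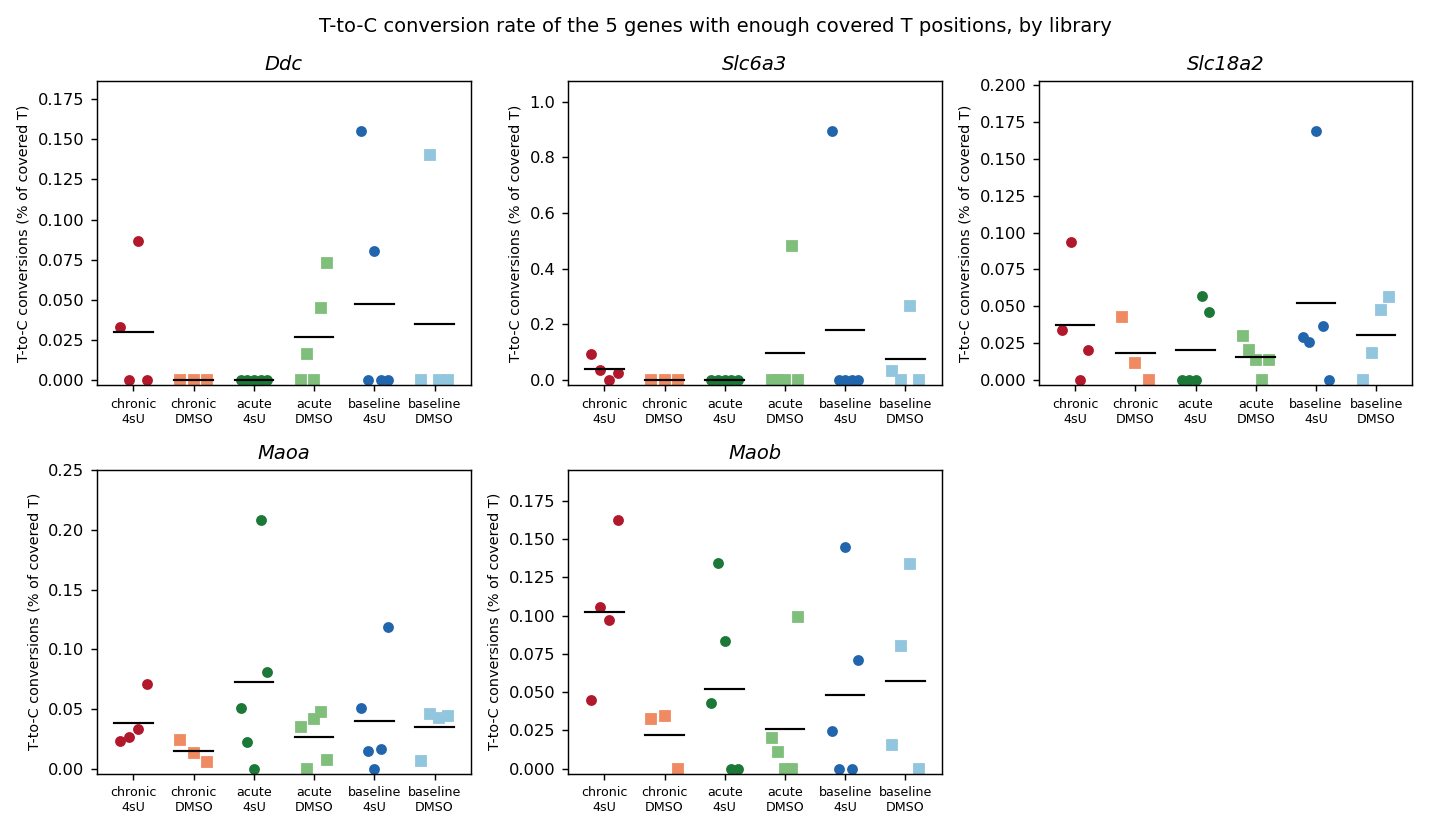
T-to-C conversion rate of the 5 tested members in each library, in percent of covered T positions, with 1 point per library and bars at group means. Maob lies between 0.0449 and 0.163% in chronic 4sU libraries and between 0 and 0.0344% in chronic DMSO libraries, and many libraries of Ddc and Slc6a3 are at 0.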

How the data were processed

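Amygdala RNA from 26 mouse libraries was sequenced, and the deposited tables hold whole-number exon counts per gene symbol, with no normalization, per the file headers. Tools named in the submitters' processing notes, with no role or order, are featureCounts 2.0.1, HISAT2 2.1.0, cutadapt 3.1 and SAMtools 1.9, and the build is mm10. How strand and multi-mapping reads were handled is not given in the sources used. The 2 tables (baseline with acute, baseline with chronic) share 9 baseline columns, which differed in 0 values, and were joined. For each library the authors also deposited slamdunk 0.4.3 output (per the file headers) for intervals in 3′ UTRs, with read counts, covered T positions, T-to-C conversions and the conversion rate as a fraction. Per the file headers its CPM column is reads scaled to the library's total, and it was not used here. The rate in percent was computed from the deposited counts. Libraries held 16150316 to 21228741 exon counts and 217691230 to 347833440 covered T positions, so a gene with few counts carries a wide counting error.

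Counts were tested with edgeR 4.0.16 (limma 3.58.1, R 4.3.3): TMM, filterByExpr, robust quasi-likelihood fits with 1 coefficient per group, 4 groups of a table per fit and 6 for chronic against acute stress, 13 comparisons in all, with Benjamini-Hochberg adjustment over all genes and a threshold of 0.05. Conversions were tested in 5 comparisons with an offset of log covered T, on the interval with the most covered positions, for genes averaging 2000 or more. Genes said to rise, fall, be higher or be lower passed the test. Alternatives were DESeq2 1.42.0, its size factors, no filter, other groups in the fit, a replicate block, 3′ UTR reads, a minimum of 500 covered positions, intervals summed per gene, leaving out each library, and leaving out the 5 libraries low in glutamatergic markers. The tests were tested on simulated data. Figures used matplotlib 3.10.9, and tables numpy 2.4.6 and pandas 2.3.3 under Python 3.11.15.

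The members and the lists were chosen with earlier results of these data known. Of other pathway genes up to 4 per list and comparison with the smallest p are named, and for each member with a median of at least 1 CPM the 3 genes with the highest Pearson r. Chrna6 and Gch1 are shown per library after their values were seen, and so are the brainstem markers named. Some genes of these lists are counted but not reported here by name.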

Additional observations from a re-analysis of the deposited data

Results flagged for a closer look

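Within groups of 4 or more libraries, the spacing of the lowest and highest library was checked for the 8 genes in 5 groups, 40 tests in all, of which chance gives about 1 in 20. A single library stood far from its group in 2 of them, both for Slc6a3. In acute 4sU mice library 5 had 3.23 CPM, against 0.635 to 1.25 CPM in the other 4. In acute DMSO mice library 2 had 14.0 CPM, against 0.577 to 2.84 CPM in the other 4. That library departed from its group over many genes and not in Slc6a3 alone.

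The effect of chronic stress differed between 4sU and DMSO mice by 1.26 on the log2 scale for Ddc, by 5.07 for Slc6a3 and by 0.70 for Maoa (edgeR's quasi-likelihood test of the difference, Benjamini-Hochberg adjusted p = 4.1e-06, 0.0127 and 2.0e-05). With the replicate number as a block Slc6a3 had 4.09 and missed the threshold (edgeR adjusted p = 0.0758). For all 3 the value was positive in 4sU mice. Every baseline 4sU library was lower than every baseline DMSO library for Ddc and Maoa, and for Slc6a3 these groups overlapped.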

How the results depend on the processing

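Over the repeats of the members' tests, 1933 stayed on the same side of the threshold in the same direction, 28 passed it anew, 17 lost it and 0 reversed. DESeq2 raised the count of members called for 4sU against DMSO after chronic stress to 2 and at baseline to 5. Without the 5 libraries low in glutamatergic markers the counts became 5 for the difference of the chronic effect between arms, 5 for 4sU against DMSO after acute stress, 1 for the same after chronic stress and 1 for conversion after acute stress. That setting keeps only libraries 2 and 5 of the acute DMSO group. Leaving out 1 library at a time gave counts of 4 to 5 for chronic stress in 4sU mice, 3 to 4 for its mean over arms and for the difference of arms, 4 to 5 for chronic against acute stress in 4sU mice, 3 to 5 for 4sU against DMSO at baseline, 3 to 4 after acute stress and 0 to 1 after chronic stress, and 0 to 0 in the remaining comparisons. The cause of these shifts was not tested.

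The replicate numbers showed no regular pairing of the samples: over 58 same-numbered pairs the correlation of deviations from the group means ran from -0.425 to 0.355, and 12 exceeded 0.1. Pairs with different numbers were not compared, so a pairing of some samples is not settled. With the replicate number as a block the counts were 4 for chronic stress in 4sU mice, 4 for its mean over arms, 2 for the difference of arms, 4 for chronic against acute stress in 4sU mice, 4 for 4sU against DMSO at baseline, 3 after acute stress and 0 in the others. Under the block Slc6a3 had 1.99 for the chronic mean (edgeR adjusted p = 0.0587) and 4.09 for the difference of arms (edgeR adjusted p = 0.0758), and Tph2 had 0.96 for the chronic mean (edgeR adjusted p = 0.0310). Depth limits Slc6a4, Tph2 and the conversion rates most, since each rests on a few counts per library.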
